A study of Homo sapiens with 3 samples.

Results

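The 5S rRNA class comprised every window that the deposited table annotates as 5S_rRNA, that is 43 of 1533 windows of 50 nt. Each of the 43 windows lay in a different gene entry, spread over 17 chromosomes, and 40 of them carried an RNA5SP pseudogene symbol. The other 3 were entered only as 5S_rRNA. The reads came from CLIP (crosslinking and immunoprecipitation) of DIS3L2 in HEK293T-Rex cells (HEK293 in the labels), a human embryonic kidney line, which overexpressed the catalytically inactive D391N mutant with a C-terminal 3xFlag tag from an inducible construct. The RNA-protein complexes were crosslinked with long-wave UV light, and 3 replicate libraries formed the only group, with no control group used here. The authors had summed the counts of the libraries, so no value has a replicate SD, and the windows of the class are places in the genome, not replicates.

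5S rRNA is a small structural RNA of the large ribosomal subunit and is transcribed by RNA polymerase III. Its promoter lies inside the transcribed sequence: TFIIIA binds an internal control region made of box A, an intermediate element and box C, and transcription stops at a run of T on the RNA-like strand. The human genome holds a tandem array of 5S genes and many scattered copies, most of them classed as pseudogenes. DIS3L2 is a 3′ to 5′ exoribonuclease that prefers RNAs to which terminal uridyltransferases have added U, and its inactive form binds such RNAs without removing them. A read counted as uridylated (U+) when it ended in at least 4 T that the genome does not encode. The U+ fraction of a window is its uridylated reads divided by its uniquely mapped (unique) reads, and tailed means U+ by this count. The paper states that its data could not separate added U from the U encoded at the ends of RNA polymerase III transcripts. It adds that U stretches there were rarely longer than the encoded U tract, and holds it possible that terminators mark such RNAs for DIS3L2. It also calls the placing of 5S reads on loci problematic, but after manual inspection it concluded that pseudogene transcripts are targets.

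The gene that served as reference for positions was RNA5S1, at chr1:228746015-228746133 on the minus strand of GRCh37, because 16 of the 17 genes RNA5S1 to RNA5S17, RNA5S1 included, have exactly its bases. Its annotated length is 119 nt, with box A at nt 50 to 64, the intermediate element at nt 67 to 72 and box C at nt 80 to 97. The genome encodes 4 T directly past the annotated end, and whether any of them belong to the mature RNA was not examined.

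The 3′ ends of some copies are printed here for reference in the description below. Each line gives the last 20 bases of the 5S-like stretch in capitals and the next 30 genomic bases in lower case, on the RNA-like strand of GRCh37. The set holds deep windows with a high U+ fraction (RNA5SP248, chr7:140086551-140086600, minus; RNA5SP460, chr18:70419267-70419316, plus; RNA5SP303, chr10:19922582-19922631, minus; RNA5SP336, chr11:21022397-21022446, minus). The last 3 are the most abundant copy, RNA5SP202 (chr6:4428296-4428345, plus), and 2 copies in which 3 or 4 encoded T follow the 5S-like stretch and the U+ fraction was low: RNA5SP65 (chr1:166975295-166975344, plus) and RNA5SP74 (chr1:204531511-204531560, minus).
RNA5SP248: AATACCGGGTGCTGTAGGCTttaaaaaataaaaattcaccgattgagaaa
RNA5SP460: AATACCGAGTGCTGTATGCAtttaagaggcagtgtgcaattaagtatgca
RNA5SP303: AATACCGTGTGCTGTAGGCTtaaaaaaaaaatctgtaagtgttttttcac
RNA5SP336: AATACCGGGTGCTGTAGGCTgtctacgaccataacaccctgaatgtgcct
RNA5SP202: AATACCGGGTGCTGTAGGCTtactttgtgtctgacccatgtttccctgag
RNA5SP65: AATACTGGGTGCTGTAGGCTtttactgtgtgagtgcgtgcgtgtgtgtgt
RNA5SP74: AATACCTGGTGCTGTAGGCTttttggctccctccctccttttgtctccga

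Reads counted as U+ were common on the listed 5S copies. The U+ fraction ran from 49.9% to 99% over the 43 windows with a median of 81.0% (interval of the median 75.7 to 86.7%, from order statistics) and quartiles of 71.4 and 89.1%. All intervals given here are at the 95% level. Those of single windows, pooled fractions and shares are Wilson intervals and cover counting error only. Reads that are PCR copies of 1 molecule are not independent. Those of medians describe the spread between windows. Of the windows, 10 reached at least 90% (23.3%, against 9.78% of all 1533 windows), 19 lay from 75 to 90%, 6 from 60 to 75% and 8 under 60%. The whole interval lay above 50% in 38 of the 43 windows, where 67.3% of all windows passed this rule. It lay above 75% in 21 (48.8%), where 14.4% of all windows did. The 5 windows whose interval included 50% were RNA5SP202, RNA5SP304, RNA5SP338, RNA5SP174 and RNA5SP51, and no interval lay wholly below 50%. The stated rule for the table favours windows with a U+ fraction above 25%, although some windows of other classes lie below it, so poorly tailed copies may be underrepresented.

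**Figure D1:**
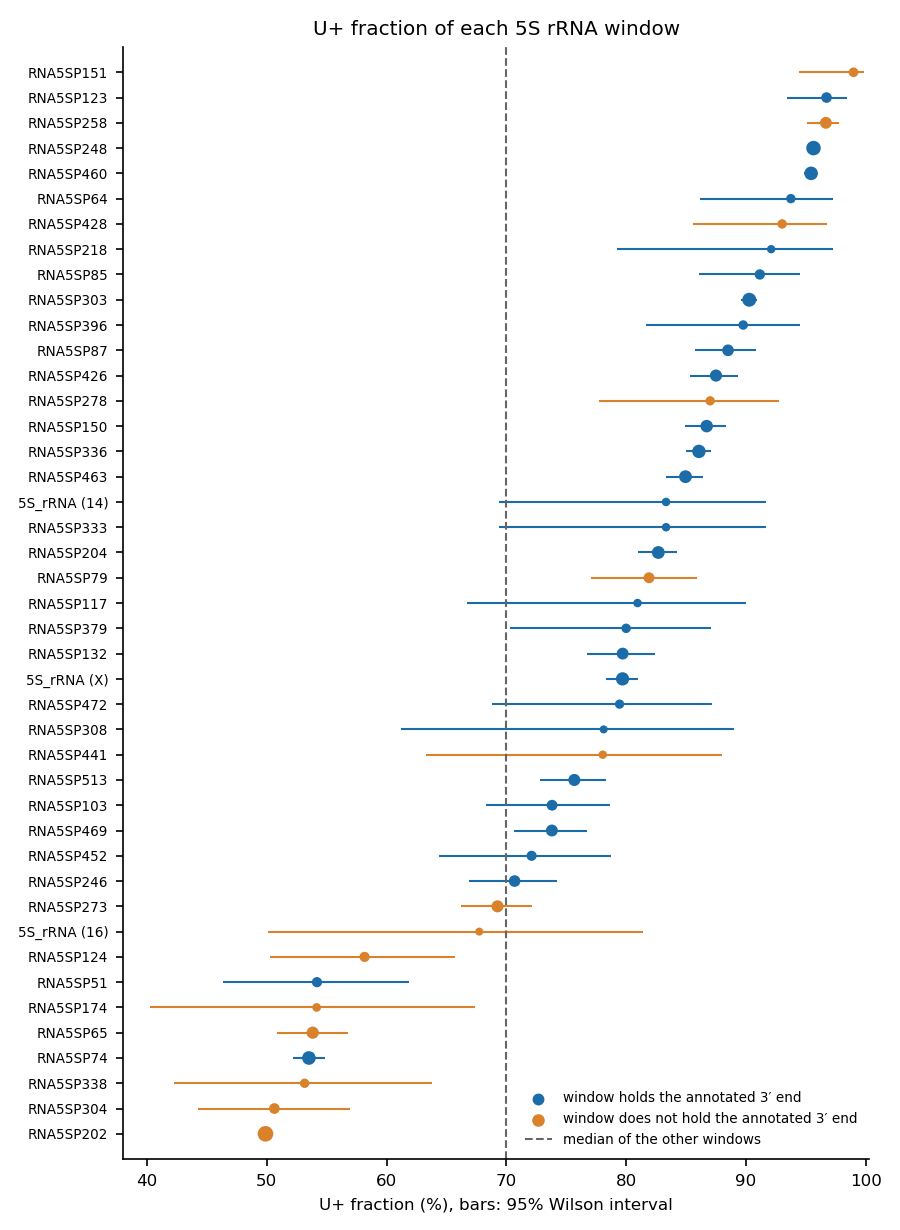
U+ fraction (%) of each of the 43 5S rRNA windows, in order, with 95% Wilson intervals as bars; larger points have more unique reads, colour tells whether the window holds the annotated 3′ end, and the dashed line is the median of the other 1490 windows shown for reference. The fractions spread from 49.9 to 99%, and 8 windows sit apart under 60%, of which 6 do not hold the annotated 3′ end.

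The U+ fractions of the class spread over a narrower range than those of the rest of the table, given here as a description without a test. Of the other 1490 windows, 238 (16%) had a U+ fraction below the lowest 5S window, and 342 (23.0%) reached or passed the 5S median. The middle 50% of the 5S windows spanned 17.7 percentage points, against 23.5 for the other windows together. Among single classes it spanned from 12.7 points for the miRNA windows, less than for 5S, to 43.7 for the snRNA windows. Median U+ fractions of the single other classes ran from 40.8% for the tRNA windows to 78.2% for the snRNA windows. The intervals of the snRNA median (69.4 to 87.9%) and the snoRNA median (43.9 to 84.7%) included the 5S median of 81.0%. The difference between the 5S median and that of all other windows was widest among deep windows. Among windows with at least 1000 unique reads, the median was 85.5% for the 12 5S windows and 42.7% for 91 others, of which 57 (62.6%) lay below the lowest 5S window. With at least 100 and fewer than 1000 reads the medians were 73.8% (15 windows) and 62.5% (487 windows), and with fewer than 100 reads, as in 37.2% of the 5S windows and 60.5% of all windows, they were 82.1% (16 windows) and 73.3% (912 windows). Leaving out windows with fewer than 100 unique reads therefore widened the gap between the medians from 11 to 19.2 percentage points.

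The reads were concentrated in a few copies. Over the class, 90480 of 139211 unique reads ended in a U tail, so that the pooled U+ fraction was 65% (interval 64.7 to 65.2%). Read numbers per window ran from 31 to 79332 with a median of 235, and 12 windows had at least 1000 reads (27.9%, against 6.72% of all windows). RNA5SP202 alone had 57.0% of the unique reads and 43.7% of the uridylated reads (interval 43.4 to 44.1%). With RNA5SP248 the share of uridylated reads reached 61.7%, with the 5 largest windows 79.6%, and 9 windows passed 90%. The 20 windows with the fewest uridylated reads held 1207 of them, or 1.33%. Without RNA5SP202 the pooled U+ fraction of the remaining 42 windows was 85% (interval 84.7 to 85.3%), and the share of the class among all uridylated reads was 6.98% instead of 11.8%.

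**Figure D2:**
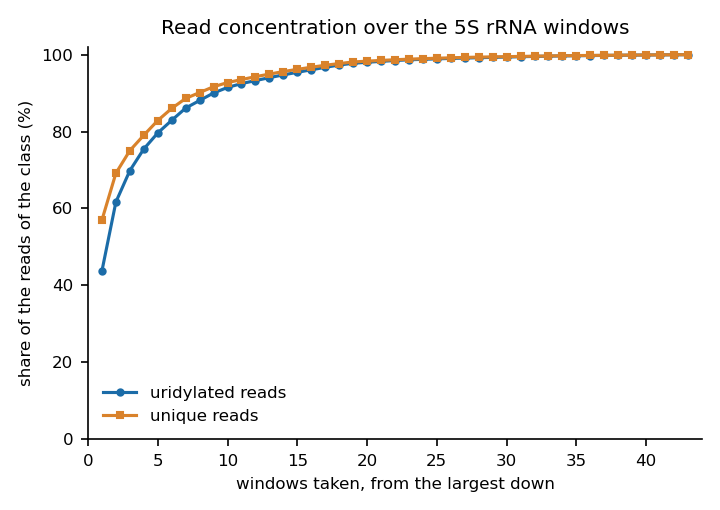
Cumulative share (%) of the uridylated and of the unique reads of the class against the number of windows taken, from the largest down. The first window accounts for 43.7% of the uridylated and 57.0% of the unique reads, and 9 windows for over 90% of the uridylated reads.

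RNA5SP202 (ENSG00000201185, locus chr6:4428197-4428315, plus strand) was the copy nearest to the 5S gene in sequence and had the lowest U+ fraction. In its window 39584 of 79332 unique reads were U+, which is 49.9% (interval 49.5 to 50.2%). This interval lay inside the wider ones of RNA5SP304, RNA5SP338, RNA5SP174 and RNA5SP51, so these copies could not be ordered. Its 119 bases differed from RNA5S1 at a single position, G27C, counted from 1 at the 5′ end of RNA5S1 with the base of RNA5S1 first. The window, chr6:4428250-4428299 on the plus strand, covers nt 54 to 103 of the gene and has the same bases there.

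These 50 bases occur unchanged at 17 other places in GRCh37. With at most 2 differences they occur at 23 other places, of which 17 lie in the RNA5S genes of chromosome 1. The nearest base that tells RNA5SP202 and RNA5S1 apart lay 27 nt upstream of the first base of the window and 18 nt downstream of its last base. Only uniquely mapped reads were counted, and none of the 16 annotated loci identical to RNA5S1 had a listed window. The read alignments were not used here, so the part that reads from the 5S genes themselves have in the count of RNA5SP202 was not tested. The same holds for RNA5SP428, whose window has 100 near-identical copies, of which 17 lie in the RNA5S genes. With only windows that have no near-identical copy, 34 in number, the median U+ fraction of the class was 82.3% and the pooled fraction 85.5%.

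The other deep copies fell into a highly tailed majority and a pair near 54%. RNA5SP248 (ENSG00000202472, locus chr7:140086581-140086707, minus strand, in an intron of SLC37A3) had 16210 U+ reads of 16949, or 95.6% (interval 95.3 to 95.9%). RNA5SP460 (ENSG00000252598, chr18:70419187-70419286, plus) had 5088 of 5331, or 95.4% (94.8 to 96.0%), although only 73.9% of the positions of RNA5S1 were identical in it. RNA5SP303 (ENSG00000252001, chr10:19922612-19922741, minus) had 7401 of 8198, or 90.3% (89.6 to 90.9%). The intervals of the first 2 overlapped each other and lay above that of RNA5SP303.

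RNA5SP336 (ENSG00000201059, chr11:21022427-21022543, minus) had 3771 U+ reads of 4381, or 86.1% (interval 85 to 87.1%), and its 3′ end runs directly into bases that resemble the start of a further 5S copy, as its line above shows. RNA5SP204 (ENSG00000201415, chr6:17722017-17722134, minus) had 1767 of 2137, or 82.7% (81.0 to 84.2%). The 5S_rRNA entry of the X chromosome (ENSG00000272351, chrX:68892323-68892441, plus, in an intron of EDA), annotated as rRNA and not as a pseudogene, had 2878 of 3611, or 79.7% (78.4 to 81.0%). The counting intervals of these 3 copies did not overlap, although those of RNA5SP204 and the X copy nearly touched. RNA5SP463, RNA5SP150 and RNA5SP85 are, like the X copy, annotated as rRNA, despite their RNA5SP symbols.

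RNA5SP74 (ENSG00000200408, chr1:204531541-204531649, minus) had 2979 U+ reads of 5566, or 53.5% (interval 52.2 to 54.8%). RNA5SP65 (ENSG00000200036, chr1:166975196-166975314, plus, in an intron of MAEL) had 589 of 1094, or 53.8% (50.9 to 56.8%), in a window that ends 15 nt before the end of the locus. Both were equally like the 5S gene, with 88.2% identical positions, and their intervals overlapped each other and not that of any other window with at least 1000 reads. The remaining 3 deep windows, RNA5SP426 with 87.5%, RNA5SP150 with 86.7% and RNA5SP463 with 85%, lay among the highly tailed copies.

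Among windows with at least 100 unique reads, the 6 highest were RNA5SP123, RNA5SP258, RNA5SP248, RNA5SP460, RNA5SP85 and RNA5SP303. RNA5SP123 had 207 uridylated of 214 unique reads, or 96.7% (interval 93.4 to 98.4%), RNA5SP258 had 698 of 722, or 96.7% (95.1 to 97.8%), and RNA5SP85 had 165 of 181, or 91.2% (86.1 to 94.5%). Only 6 bases of the RNA5SP123 window and 13 of the RNA5SP85 window align to RNA5S1. The RNA5SP85 window has 396 near-identical copies in the genome, and the part of reads from these places in its count was not tested. The 6 lowest were RNA5SP202, RNA5SP304, RNA5SP74, RNA5SP65, RNA5SP51 and RNA5SP124. RNA5SP304 had 119 of 235, or 50.6% (44.3 to 57.0%), RNA5SP51 had 84 of 155, or 54.2% (46.3 to 61.8%), and RNA5SP124 had 89 of 153, or 58.2% (50.2 to 65.7%). The RNA5SP304 window lies mostly before the 5S-like stretch, with 34 bases upstream of it and only 16 that align to RNA5S1. The intervals of the 6 lowest did not overlap those of the 6 highest, but both sets were picked by U+ fraction, so this was no test. Within each set most neighbours could not be ordered at these counts. The highest value of all, 99% in RNA5SP151, rested on 97 of 98 reads (94.4 to 99.8%).

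Of the 3 windows without an RNA5SP symbol, the shallow ones were uncertain. The entry on chromosome 14 (ENSG00000272253), annotated now as RNA5SP386, had 35 uridylated of 42 unique reads, or 83.3% (interval 69.4 to 91.7%). The entry on chromosome 16 (ENSG00000261122) had 21 of 31, or 67.7% (50.1 to 81.4%), and its transcript is annotated now as the long non-coding RNA LINC02167. That window overlapped none of the 14 annotated 5S pseudogenes that lie beside it, whose identity to RNA5S1 was 62.2 to 69.7%, but its own bases aligned to RNA5S1 with 70.6% identity over the gene.

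Most windows lay at the 3′ end of the 5S sequence. The annotated 3′ end fell inside 29 windows, which reached from 2 to 44 nt past it (median 19 nt), and nt 101 to 104 were the positions in most windows, 32 of 43. Only 2 windows reached the first base. The median U+ fraction was 83.3% in the 29 windows that hold the end (range 53.5 to 96.7%) and 68.5% in the other 14 (49.9 to 99%), a gap of 14.8 percentage points between ranges that overlapped. The interval of the second median, from order statistics, was 53.2 to 93.0% and included the first. It describes the spread between windows and is no test, since windows are not replicates. With at least 100 unique reads the gap was 25.7 points. Of the 14, the 5 that start before nt 40 had 294 uridylated among 472 unique reads and a median of 67.7%, and 9 that start later had a median of 69.3%.

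**Figure D3:**
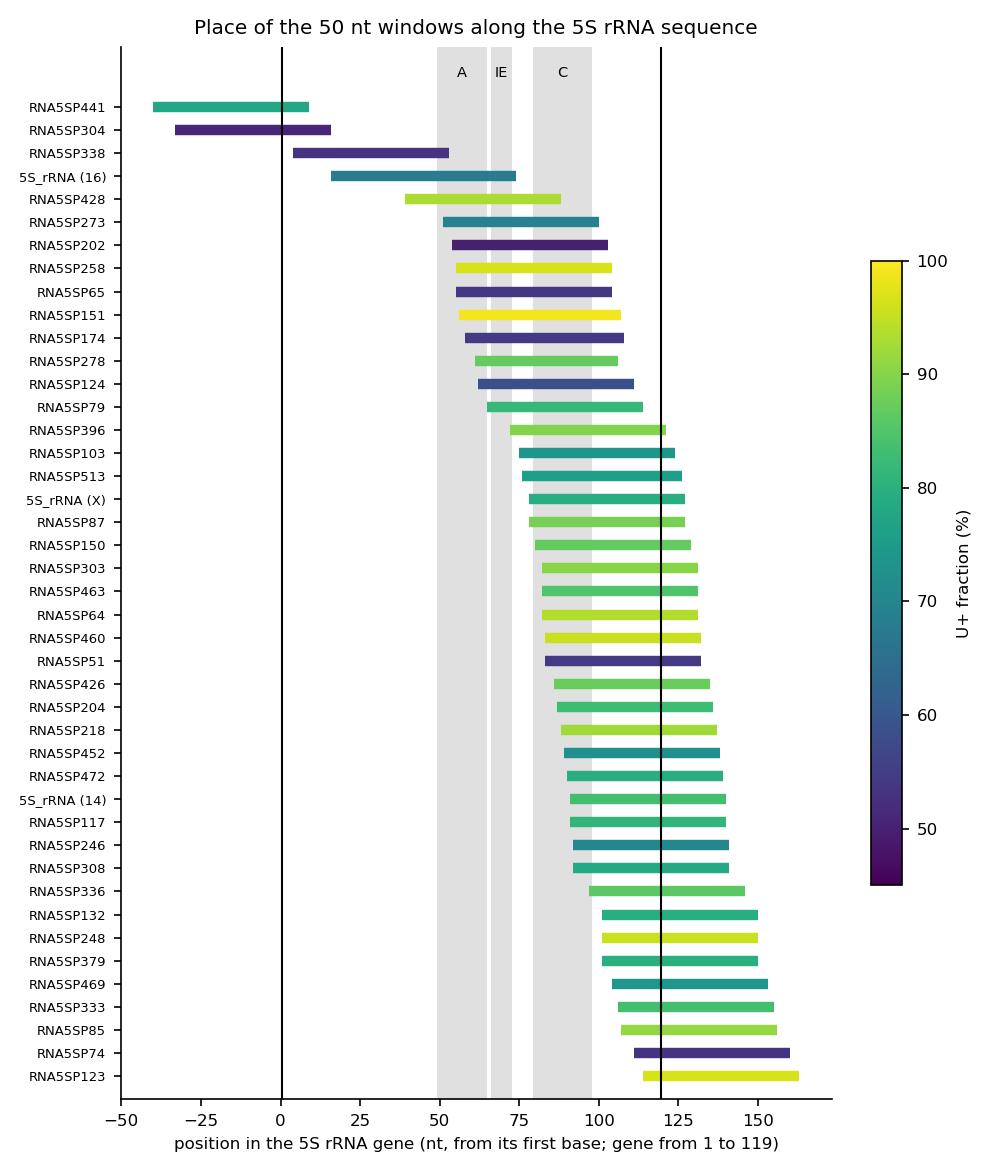
Place of each of the 43 windows along the 5S rRNA sequence (nt from the first base of RNA5S1, which runs from 1 to 119 between the vertical lines), coloured by U+ fraction (%), with box A, the intermediate element (IE) and box C shaded; a bar differs from 50 nt where the alignment has gaps. The windows crowd around the 3′ end, and the 5 that start before nt 40 run from RNA5SP304 (50.6%) and RNA5SP338 (53.2%) over the chromosome 16 entry (67.7%) and RNA5SP441 (78.0%) to RNA5SP428 (93.0%).

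Some copies did not keep the 3′ end of the gene. The last 20 bases of RNA5S1 were recognisable, with at least 15 of 20 identical in a stretch of at most 22 nt, in 37 of the 43 loci, here called intact ends. The 6 without were RNA5SP151, RNA5SP304, RNA5SP338, RNA5SP428, RNA5SP441 and the chromosome 16 entry, and their U+ fractions were between 50.6 and 99%. RNA5SP441 was the copy farthest from the gene, with 58.8% identity, and its window lay mostly before the annotated start, with 32 of 41 reads uridylated, or 78.0% (interval 63.3 to 88.0%).

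Among the 37 copies with an intact end, those in which the genome encodes more T directly past nt 119 had lower U+ fractions. With 0 encoded T (4 windows: RNA5SP64, RNA5SP336, RNA5SP85 and RNA5SP87) the fractions were 86.1 to 93.8%, with a median of 89.8%. With 1 T (16 windows) the median was 85.8%, with 2 T (8 windows) 77.7%, with 3 T (7 windows) 73.8%, and with 4 T (RNA5SP74 and RNA5SP51) 53.9%. Over the 37 windows Spearman's rho was -0.55 and Pearson's r -0.60, as a description of points that share the same libraries and base composition past the end. The order was not strict: RNA5SP248 with 2 T and RNA5SP460 with 3 T lay above 95%.

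The copies under 60% followed this relation only in part. Of the 9 intact copies with at least 3 encoded T, 5 had a U+ fraction under 60% (RNA5SP65, RNA5SP74, RNA5SP51, RNA5SP124 and RNA5SP174) and 4 did not (RNA5SP460, RNA5SP117, RNA5SP132 and RNA5SP103, from 73.8 to 95.4%). Among the 28 intact copies with fewer T, RNA5SP202 was the only copy under 60%. The other 2 under 60%, RNA5SP304 and RNA5SP338, had no intact end. The count of T was chosen after these values had been seen. An encoded T at the end of a read belongs to the genome match and not to the tail, so that encoded T can change which reads count as U+, and the part of this in the values was not tested. Position moved with it too, since RNA5SP65, RNA5SP124 and RNA5SP174 were windows that do not hold the annotated end. Within the 29 windows that hold it, rho was -0.55, but the medians did not fall at every step: they were 89.8% with 0 T (4 windows), 85.8% with 1 T (12 windows), 75.7% with 2 T (7 windows), 80.3% with 3 T (4 windows, none under 73.8%) and 53.9% with 4 T (2 windows).

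**Figure D4:**
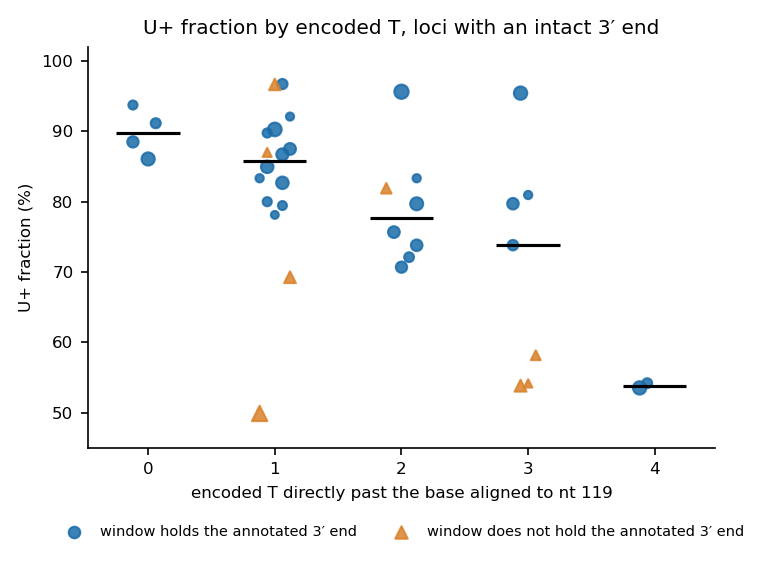
U+ fraction (%) of the 37 windows of loci with an intact 3′ end against the number of T that the genome encodes directly past the base aligned to nt 119; each point is a window, larger with more unique reads, symbols tell whether the window holds the annotated 3′ end, and horizontal lines are medians. The medians fall from 89.8% with 0 T to 53.9% with 4 T, and RNA5SP248 and RNA5SP460 stay above 95% with 2 and 3 T.

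RNA polymerase III stops at T runs, and most loci had none of at least 4 T nearby. Such a run lay within 50 nt past the end at 11 of 43 loci, and within 20 nt at 4, counting RNA5SP74 and RNA5SP51, where it starts directly at the end. The median U+ fraction of loci with such a run minus that of loci without was -0.00325 percentage points. It was -10.3 with runs within 20 nt, 7.54 for runs of at least 5 T and 7.79 over windows with at least 100 unique reads, so that its sign depended on the rule.

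What followed the 5S-like stretch came in a few kinds, grouped after the sequences had been read. At 21 of the 43 loci at least 6 of the next 15 bases were A, as at RNA5SP248 and RNA5SP303, and the median U+ fraction was 83.3%. At 9 loci the letters GTGGCT, which stand near the start of Alu elements, occurred within 25 nt past the end, as at the X copy and RNA5SP150, with a median of 79.7%. The remaining 13 had a median of 67.7%, and with an intact end 79.5% (9 loci). The ranges of the 3 kinds overlapped: 54.2 to 99%, 58.2 to 92.1% and 49.9 to 95.4%.

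The loci with a listed window were a small part of the 5S family. GENCODE release 44 mapped to GRCh37 gave 524 separate 5S loci free of unread bases, of which 42 had a listed window. The median identity to RNA5S1 was 83.2% in the 42 (quartiles 79.0 and 88.2%) and 75.6% in the other 482 (71.4 and 80.7%). The share of loci with a listed window was 4.17% (1 of 24) below an identity of 65%, 1.22% at 65 to 70%, 1.53% at 70 to 75%, 6.82% at 75 to 80%, 15.6% at 80 to 85%, 26.5% at 85 to 90% and 55.6% (5 of 9) from 90 to below 100%, and it was 0 of 16 among loci identical to RNA5S1. An intact end was present in 37 of the 42 (88.1%) and in 123 of the 482 (25.5%). The letters GTGGCT followed 9 of the 42 (21.4%) and 4 of the 482 (0.830%), or 13 of all 524 (2.48%), and their reverse complement followed none. An A-rich start of the flank was found at 21 of the 42 and at 189 of the 482 (39.2%). The letters and their span were chosen after flanks had been seen, so these shares are a description and no test. Both searches started at the aligned end, which was not intact in most of the 482 loci. A locus without a listed window may have had reads that map to several copies, too few reads or too few U+ reads, and these were not told apart.

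**Figure D5:**
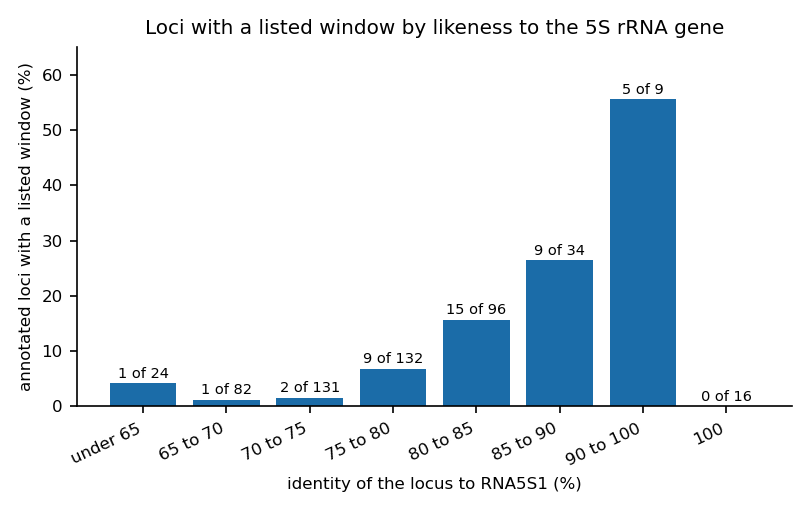
Share (%) of annotated 5S loci that have a listed window, by identity (%) of the locus to RNA5S1, with counts above the bars. The share is 4.17% (1 of 24) below 65% identity, then rises from 1.22% (1 of 82) at 65 to 70% to 55.6% (5 of 9) at 90 to below 100%, and is 0 of 16 for loci identical to RNA5S1.

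Among the 43 windows themselves, likeness to the gene was only weakly related to the U+ fraction. Spearman's rho of the U+ fraction with identity to RNA5S1 was -0.12 and Pearson's r -0.09. In the internal control region, 48 nt long, the copies had 0 to 13 differences from RNA5S1 with a median of 6, and rho with the U+ fraction was 0.22. The 5 copies with at most 2 differences there had a median U+ fraction of 72.1% and the 9 with at least 9 differences 88.5%, with ranges of 49.9 to 86.1% and 53.2 to 96.7%. The predicted minimum free energy of the 5S-like stretch ran from -51.7 to -24.9 kcal/mol (-50.5 for RNA5S1), and its rho was 0.22. Relations this weak were not read as differences between copies.

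The copies lay in several gene contexts. Of the windows, 15 lay within a gene on the same strand, all of them in introns and none over an exon, 12 faced a gene on the opposite strand only, and 16 overlapped no other gene. The 15 include the chromosome 16 entry, whose gene, LINC02167, is its own entry and not a separate host. The median U+ fractions were 72.1, 86.9 and 80.5%, with ranges of 50.6 to 99%, 49.9 to 96.7% and 53.5 to 96.7%, which overlapped almost wholly. RNA5SP248 and RNA5SP65 show the width within introns, at 95.6 and 53.8%.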

How the data were processed

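CLIP reads of 3 replicates in 1 group were processed by the authors: mapping to hg19 with Segemehl (version not given in the sources used here), trimming of 3′ T from unmapped reads and remapping. The submitters' processing notes also name Subread. The deposited values are raw counts of unique and of uridylated reads per 50 nt window, summed over replicates by the authors, and 139211 unique reads lay in the 43 windows of the class. The stated selection was a posterior of 0.95 for a U+ frequency above 0.25 and a minimum of 20 reads. Not every window of the table meets it, since the lowest U+ fraction is 0.719% and the fewest unique reads are 7, both outside the 5S class. Window starts were read as 1-based and may be off by 1 nt.

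No test was run, since counts were pooled. Intervals of fractions and shares are Wilson intervals, and those of medians come from order statistics over windows (scipy 1.17.1). RNA5S1 was aligned end to end within each locus and 60 nt on either side (Biopython 1.88, match 2, mismatch -2, gap -6 and -1). Windows were searched against GRCh37 with blastn 2.17.0, and other places that matched over 45 nt or more with 2 or fewer differences counted as near-identical copies. Energies came from RNAfold 2.7.2. Loci and genes came from GENCODE release 44. The placement was tested on simulated data. The members, lists and alternatives were chosen with earlier results of these data known. Full values were given for the 8 deepest windows, the 6 highest and 6 lowest with at least 100 reads, the extremes, the entries without RNA5SP symbol, deep windows without the end, and the nearest and farthest copies. Alternatives were minimum reads, leaving out RNA5SP202 or copied windows, other thresholds, and windows moved by 1 nt. Some sequences are not reported here.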

Additional observations from a re-analysis of the deposited data

How the results depend on the processing

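Leaving out a replicate was not possible because the counts are pooled, and no paired analysis was possible because there is only 1 group. Of the 39 values recomputed under an alternative, 23 stayed within the tolerance, 14 moved and 2 changed sign. The pooled U+ fraction of 65% moved to 85% without RNA5SP202, 85.5% without windows that have near-identical copies, and 64.6% with RNA5SP symbols only. The gap to the other windows of 11 percentage points became 19.2 with at least 100 unique reads. The share of the deepest window of 43.7% became 44.1% with at least 100 reads, 34.2% without copied windows (then RNA5SP248) and 57.0% of unique reads. The share of the class among all uridylated reads of 11.8% became 6.98% without RNA5SP202, 13.6% without the largest window of the table and 5.18% of unique reads. The 38 windows above 50% became 21 above 75%, and 24 with at least 100 reads. The 11 loci with a T run past the end became 6 with at least 5 T and 4 within 20 nt. The difference between loci with and without such a run, -0.00325 percentage points, became -10.3 within 20 nt, inside the wide tolerance, 7.54 with at least 5 T and 7.79 with at least 100 reads. For sign changes and moves the cause was not tested, apart from fewer windows or a stricter rule. The rho with encoded T, added after the data had been seen, was between -0.52 and -0.58 under 4 alternatives. Tolerances were the interval of the median or share, 1.5 times for counts and 0.1 for correlations. Windows with few reads have wide intervals.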
